A study of Mus musculus with 11 samples.

Results

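Elf1 and Ets1 are both transcription factors of the ETS family, and the subject here is a set of mouse genomic positions at which Elf1 was bound in both T cell types of the study while neither Ets1 nor Foxp3 ranked high nearby. There were 1296 such positions among the 10000 Treg Elf1 positions with the highest score (13.0%), and they made up 20.3% of the 6391 that were shared with CD4 cells. A member was a top 10000 Treg Elf1 position with a top 10000 CD4 Elf1 position within 200 bp. It had no Ets1 position of the 20000 highest of either cell type within 200 bp, and no midpoint of a Foxp3 interval within 300 bp. Such positions are called Elf1-alone sites below, where "alone" refers only to these list depths. The sites were chosen by their Elf1 scores, Ets1 scores and distance to Foxp3, so these values are given as a description.

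Binding was measured by chromatin immunoprecipitation and sequencing (ChIP-seq) of CD4 T cells from lymph nodes and spleen of mice of about 8 weeks, sorted on a green fluorescent protein reporter of Foxp3. Regulatory T cells (Treg), the Foxp3-positive fraction, were assayed for Elf1, Ets1 and Cbfb with 1 library per factor. The Foxp3-negative fraction, named CD4 after the labels, was assayed for Elf1, Ets1 and Cbfb, also with 1 library per factor. For Elf1 the antibody was the same as in Treg. The CD4 Cbfb library was not analysed here. Foxp3 binding came as a single list of 2886 intervals from combined Treg replicates. The labels give no strain, no treatment and no pooling of animals. The sort gate defined the cells, and these files hold no expression values with which the cell types could be checked against markers.

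ETS proteins share a DNA-binding domain that recognises a short core motif, so several family members can occupy the same site. In T cells Ets1 is known for binding next to Runx proteins at enhancers and at T cell genes, and Runx proteins bind DNA together with Cbfb, which does not touch DNA itself. Elf1 belongs to another branch of the family and is expressed widely in blood cells. Foxp3 is the factor that defines Treg cells.

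The deposited lists held 187745 positions for Treg Elf1, 241359 for CD4 Elf1, 226148 for Treg Ets1, 242086 for CD4 Ets1 and 161760 for Treg Cbfb. Each position carried the authors' score, a false discovery rate (FDR) and a fold enrichment. Neither read numbers nor the control used for the fold enrichment are given in the sources used here. Each Elf1, Ets1 and Cbfb group had 1 library, so no difference below has a replicate check and no p-value is given. Intervals are exact 95% intervals and cover counting error only. Coordinates are in build mm9, as in the files, and positions carry no gene names since no mm9 annotation was used here.

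For comparison, the other Treg Elf1 positions of the top 10000 fell into 3 classes. There were 3836 shared positions with a top 20000 Ets1 position and no Foxp3 (joint sites), 1259 shared positions with Foxp3 (Foxp3 sites), and 3609 without a CD4 counterpart. Of the last class 2429 also lacked Ets1 and Foxp3, and these are called Treg-list sites, since by definition they differ from the Elf1-alone sites only in having no CD4 counterpart. They were weaker Elf1 positions, though, with a median Treg rank of 7902 and fold enrichment of 9.30, against rank 4542 and 13.2-fold at Elf1-alone sites, so the classes are not matched on Elf1. Among shared positions without Ets1, 59 of 1355 (4.35%, 3.33 to 5.58) lay at Foxp3, against 1200 of 5036 with Ets1 (23.8%, 22.7 to 25.0). The Foxp3 limit alone thus left 59 positions out of the Elf1-alone set.

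Elf1-alone sites were uncommon among the strongest Elf1 positions and more common further down the list. They made up 33 of the 500 highest Treg Elf1 positions (6.60%, 4.59 to 9.14) and 366 of the 2000 positions at ranks 3001 to 5000 (18.3%, 16.6 to 20.1). At ranks 7501 to 10000 they made up 7.52% (6.52 to 8.62), and 72.7% of the positions there had no CD4 counterpart. Counted among shared positions only, their share was 6.61% (4.60 to 9.16) at ranks 1 to 500, 17.9% (15.5 to 20.6) at ranks 2001 to 3000 and 27.7% (25.3 to 30.2) at ranks 5001 to 7500. At ranks 7501 to 10000 it was 27.5% (24.2 to 31.0). Joint sites went the other way, with 78.8% (74.9 to 82.3) of the shared positions at ranks 1 to 500 and 53.6% (49.8 to 57.4) at ranks 7501 to 10000.

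**Figure D1:**
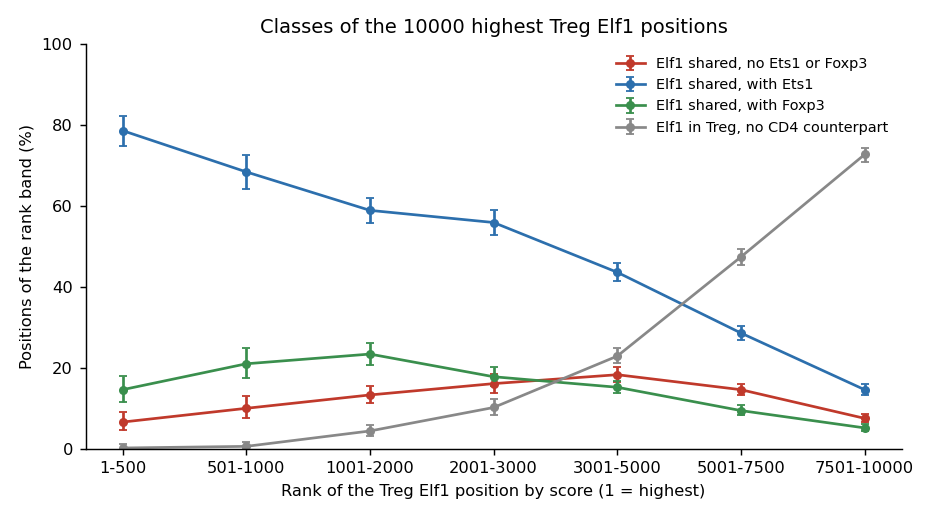
Share of each class (y axis, percent) among the 10000 highest Treg Elf1 positions, in bands of rank by score (x axis, highest scores at the left). Points are shares with exact 95% intervals; Elf1-alone sites go up to 18.3% at ranks 3001 to 5000 and joint sites decline from the first band on, while positions with no CD4 counterpart reach 72.7% in the last band.

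The median rank of an Elf1-alone site was 4542 in the Treg list and 4876 in the CD4 list, against 3064 (Treg) and 2812 (CD4) at joint sites. Their Treg fold enrichment ran from 2.45 to 350 with a median of 13.2, the same as over all 10000 positions, and was under 4-fold at 24 of them (1.85%, 1.19 to 2.74). The median at joint sites was 17.1 and at Foxp3 sites 16.1. In the CD4 library the Elf1-alone sites had a median of 15.6, against 22.1 at joint and 18.9 at Foxp3 sites. Elf1 was thus less enriched at Elf1-alone sites than at the other shared positions in both libraries, with wide overlap: the middle 50% of Treg values lay between 8.43 and 22.0 at Elf1-alone and between 10.1 and 30.4 at joint sites.

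Treg and CD4 positions of a site lay close together. The distance had a median of 27.0 bp, and 76.4% of the sites (74.0 to 78.7) had their 2 positions within 50 bp. The median was 23.0 bp at joint sites and 29.0 bp at Foxp3 sites. Only 73 Elf1-alone sites (5.63%) used more than 100 of the 200 bp that the definition allowed. The 1296 Treg positions had 1295 distinct CD4 counterparts.

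The 6 Elf1-alone sites with the highest Treg Elf1 score show the range of neighbours that the definition lets in. The highest lay on chromosome 12 at 80273440, with a Treg fold enrichment of 66.1 (lower bound 24.3) and a CD4 fold enrichment of 62.0 (lower bound 23.1) at 14 bp. A Treg Ets1 position at rank 77309, 73 bp away, had an FDR of 0.0175, and no CD4 Ets1 position lay within 200 bp. The next, on chromosome 14 at 118488585, was 350-fold in Treg and 356-fold in CD4 and had no Ets1 or Cbfb position of any rank within 200 bp. The site on chromosome 15 at 85465101 was 34.9-fold in Treg and 54.4-fold in CD4, with a Treg Ets1 position of 2.30-fold 178 bp away.

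Of the other 3, a pair lay near Foxp3 intervals, outside the 300 bp limit. At 74685055 on chromosome 8 the Treg fold enrichment was 23.3 and the CD4 value 24.0, no Ets1 position of any rank lay within 200 bp, and a Foxp3 midpoint lay 371 bp away. At 50610733 on chromosome 17 the values were 45.1 in Treg and 71.2 in CD4. There a Foxp3 midpoint was 807 bp away and a CD4 Ets1 position at rank 25867 lay at 43 bp. This site also had the highest CD4 Elf1 score of all Elf1-alone sites, at CD4 rank 52. On chromosome 10 at 40602939, 52.4-fold in Treg and 36.1-fold in CD4, a CD4 Ets1 position at rank 20214 just missed the limit and had a fold enrichment of 17.4.

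The 3 further sites with the highest CD4 scores lay on chromosome 1 at 157005753 (43.5-fold in Treg, 82.5-fold in CD4), on chromosome 10 at 77441318 (21.5-fold in Treg, 44.0-fold in CD4) and on chromosome 17 at 85489951 (286-fold in Treg, 416-fold in CD4). All 3 were higher in the CD4 library, but they were chosen by CD4 score, and 63.7% of all Elf1-alone sites were higher there. Each of the 3 had a CD4 Ets1 position below the 20000 limit within 200 bp. At the last it reached 59.5-fold, the highest CD4 Ets1 fold enrichment at any Elf1-alone site, at rank 42464. A limit on the Ets1 score thus did not remove every position of high Ets1 fold enrichment.

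The limits ran through a continuous range of values. The Elf1-alone site with the lowest Treg score had rank 9867 (score 6.80, 5.12-fold), and the first position beyond the limit that met every other condition had rank 10116 (score 6.78, 31.8-fold). For CD4 Elf1 the ranks on either side were 9992 (score 15.1, 4.31-fold) and 10001 (score 15.1, 2.26-fold), and for the nearest Ets1 position they were 20015 (CD4 Ets1, 2.25-fold) and 19972 (Treg Ets1, 1.20-fold). The distance to a CD4 counterpart was 200 bp just inside and 204 bp just outside. The distance to a Foxp3 midpoint was 302 bp inside and 296 bp outside.

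The number of sites followed the limits. Lists of the 5000 highest Elf1 positions gave 482 Elf1-alone sites and lists of 20000 gave 2643. Allowing no Ets1 position with an FDR of at most 0.01 within 200 bp, in place of the top 20000, gave 803. With the Elf1 and Ets1 lists ranked by fold enrichment there were 1045, slightly more than the 1002 joint sites under that ranking.

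Ets1 was seldom absent altogether. Of the 1296 Elf1-alone sites, 987 (76.2%, 73.7 to 78.5) had an Ets1 position of some rank in at least 1 cell type within 200 bp, against 81.0% of all 10000 Treg Elf1 positions and 36.0% (34.1 to 38.0) of Treg-list sites. With every 200 bp limit set to 100 bp, which also redefined the set as 1748 sites, the share was 49.2%. An FDR limit of 0.01 lowered these shares. In Treg 177 Elf1-alone sites (13.7%, 11.8 to 15.6) had one, against 7.66% (6.63 to 8.79) of Treg-list sites and 47.2% of all 10000 positions. In CD4 380 Elf1-alone sites (29.3%, 26.9 to 31.9) had one, against 7.33% (6.32 to 8.44) of Treg-list sites and 62.9% of all 10000 positions. The Elf1-alone sites thus lay above Treg-list sites in both libraries, and 64 Elf1-alone sites (4.94%) had such a position in both. The definitions of Elf1-alone and Treg-list sites left out every high-ranking Ets1 position, while the full set kept them. Lower shares than in the full set therefore follow largely from the definitions, and no conclusion is drawn from them.

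The 2 Ets1 lists differed at Elf1-alone sites. An Ets1 position of any rank was present at 32.9% (30.3 to 35.5) of Elf1-alone sites in Treg and at 65.9% (63.2 to 68.5) in CD4. The shares were 76.4% in Treg and 98.1% in CD4 at joint sites, and 59.0% in Treg and 74.5% in CD4 over all 10000 Treg Elf1 positions. At Treg-list sites they were 19.2% in Treg and 25.0% in CD4. Over all ranks, as used for these shares, the CD4 Ets1 list was the longer one, with 242086 positions against 226148 in Treg. With an FDR of at most 0.01 the Treg list was the longer one, with 61761 positions against 42040 in CD4. Where a position was present, its median fold enrichment was 3.14 in Treg and 4.13 in CD4, against 4.85 in Treg and 7.53 in CD4 at joint sites. Read numbers are unknown, so a difference in Ets1 binding and a difference between the libraries cannot be told apart.

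By cell type, 293 Elf1-alone sites had an Ets1 position of any rank in both libraries, 133 in Treg alone, 561 in CD4 alone and 309 (23.8%, 21.5 to 26.3) in neither. These 309 sites had the lowest median Elf1 fold enrichment of the 4 groups in both libraries, by a small margin. It was 12.7 in Treg, against 13.2 to 13.9 in the other groups, and 13.6 in CD4, against 14.9 to 16.7. By Treg rank their median of 4812 was within the range of the other groups, 4253 to 5003. A Cbfb position of any rank was missing as well at 286 of them. The number of sites with no Ets1 position of any rank within 1 kb was 94 (7.25%, 5.90 to 8.80). It was counted for Elf1-alone sites only, so it cannot be set against other Elf1 positions.

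Many Elf1-alone sites had strong Ets1 just beyond 200 bp. A top 20000 Ets1 position of either cell type lay 201 to 1000 bp away at 445 sites (34.3%, 31.8 to 37.0) and 1001 to 10000 bp away at 320 (24.7%, 22.4 to 27.1). The remaining 531 (41.0%, 38.3 to 43.7) had none within 10 kb. For CD4 Ets1 alone, 28.4% (26.0 to 30.9) of Elf1-alone sites had a top 20000 position as their nearest at 201 to 1000 bp, against 14.5% (13.1 to 16.0) of Treg-list sites. Median Treg Elf1 rank was much the same in the 3 distance groups, at 4472, 4626 and 4529.

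The density of all deposited Ets1 positions was higher near the Elf1 position than several kb away, but it did not decline steadily. From 101 to 200 bp to 201 to 300 bp it went from 67.1 (57.5 to 77.9) to 86.0 (75.1 to 98.1) for Treg Ets1. For CD4 Ets1 it went from 106 (93.9 to 119) to 117 (104 to 131). The definition left out high-ranking Ets1 positions up to 200 bp and not beyond. Within 200 bp there were 83.7 Treg Ets1 positions (76.0 to 92.0) and 173 CD4 Ets1 positions (162 to 185) per 100 sites and kb. Between 2 and 10 kb away these densities were 15.6 for Treg Ets1 and 19.5 for CD4 Ets1. At joint sites, which have a high-ranking Ets1 position by definition, they were 200 for Treg Ets1 and 258 for CD4 Ets1 within 200 bp, and 16.8 for Treg Ets1 and 22.1 for CD4 Ets1 farther out. Within 200 bp of Elf1-alone sites, low-ranking Ets1 positions were thus denser than Ets1 positions of all ranks at 2 to 10 kb. Every high-ranking one within 200 bp had been left out by definition.

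**Figure D2:**
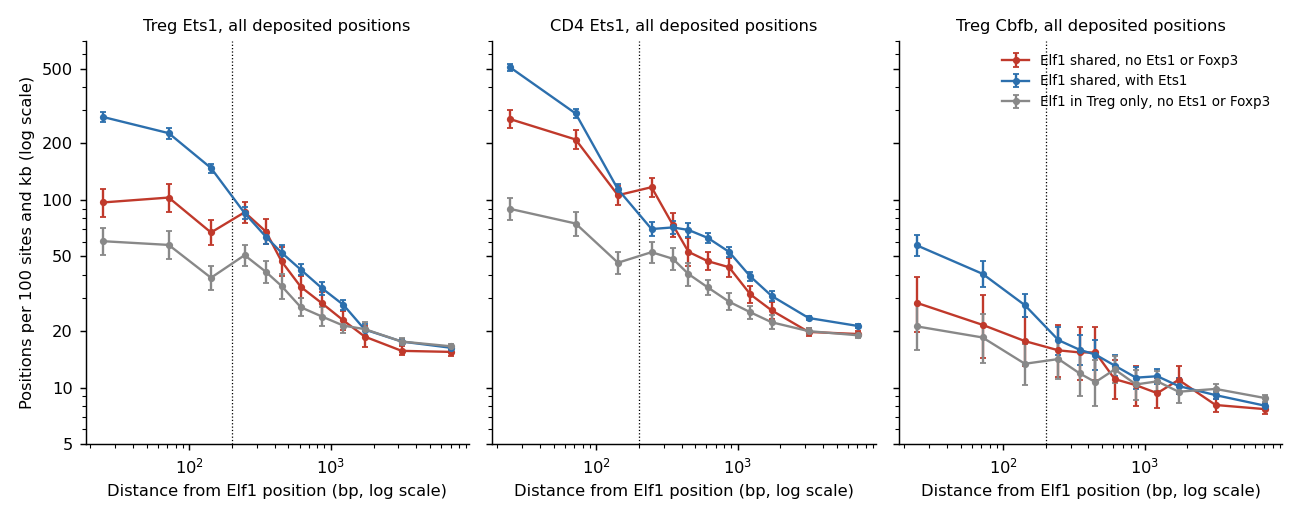
Density of all deposited Treg Ets1, CD4 Ets1 and Treg Cbfb positions (y axis, positions per 100 sites and kb, log scale) by distance from the Elf1 position (x axis, bp, log scale) with exact Poisson 95% intervals; the dotted line marks 200 bp. Within 200 bp Cbfb stands at 21.4 at Elf1-alone and 38.2 at joint sites; for Ets1 the order of these classes follows from their definition.

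Cbfb, which played no part in choosing the sites, was rare at them. Of the 1296 Elf1-alone sites 14 (1.08%, 0.592 to 1.81) had a Treg Cbfb position of the 10000 highest within 200 bp, against 3.55% of all 10000 Treg Elf1 positions. The share was 3.18% (2.65 to 3.79) at joint sites and 10.6% (8.99 to 12.5) at Foxp3 sites. It was 0.865% (0.536 to 1.32) at Treg-list sites, whose interval overlaps that of the Elf1-alone sites. Among Cbfb positions with an FDR of at most 0.01 the shares were 5.86% (4.65 to 7.29) at Elf1-alone, 12.3% (11.2 to 13.3) at joint and 25.1% (22.7 to 27.6) at Foxp3 sites, and 11.6% over all 10000 positions.

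Joint sites have higher Elf1 scores, so the same shares were taken within bands of Treg Elf1 rank. Cbfb was less frequent at Elf1-alone than at joint sites in all 7 bands. At ranks 1 to 500 it was found at 0 of 33 Elf1-alone sites (upper limit 10.6%) and 17 of 393 joint sites (4.33%). At ranks 3001 to 5000 the share was 1.37% (0.445 to 3.16) at Elf1-alone and 3.10% (2.05 to 4.47) at joint sites. At ranks 5001 to 7500 it was 0.822% (0.170 to 2.38) at Elf1-alone and 2.38% (1.39 to 3.78) at joint sites. Within each of these bands the intervals overlap, so no single one of them shows the difference by itself. The gap almost closed with the Elf1 and Ets1 lists ranked by fold enrichment, at 2.20% for Elf1-alone and 2.40% for joint sites.

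Cbfb positions were still denser around Elf1-alone sites than several kb away. Top 10000 Cbfb positions had a density of 2.89 (1.62 to 4.76) per 100 sites and kb within 200 bp, against 0.651 (0.546 to 0.771) at 2 to 10 kb. At joint sites the densities were 8.00 (6.65 to 9.54) and 0.683 (0.619 to 0.751). The values of these 2 classes were thus close at 2 to 10 kb and differed within 200 bp. Treg-list sites also had a higher density within 200 bp, 2.16 (1.33 to 3.30) against 0.726 (0.643 to 0.815). Around Elf1-alone sites the density was still 2.70 (1.09 to 5.56) at 401 to 500 bp, on 7 positions. The excess was thus not confined to the nearest 200 bp. The Treg Cbfb library was less enriched than Treg Elf1, with a median of 5.75-fold against 13.2-fold over its 10000 highest positions, and its part in the low shares was not tested.

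**Figure D3:**
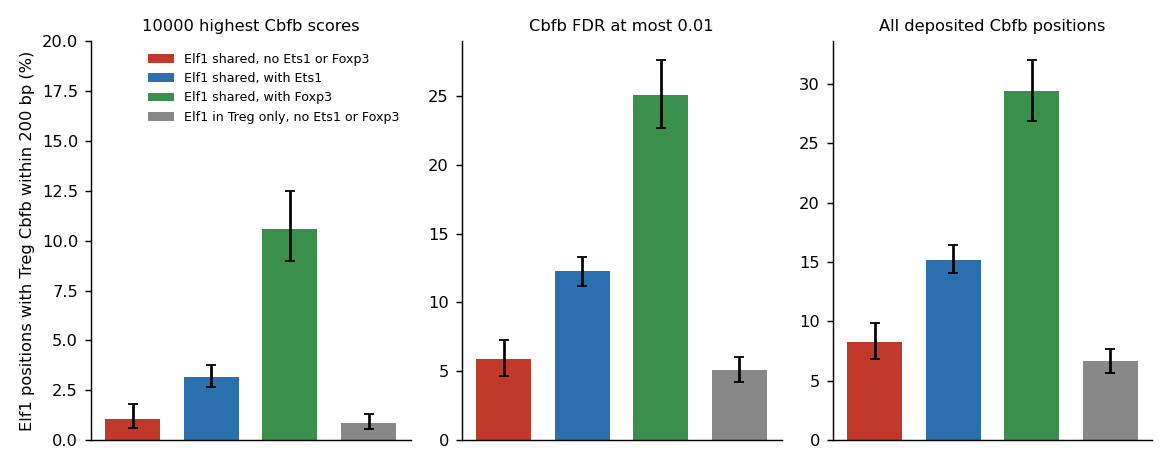
Share of Elf1 positions with a Treg Cbfb position within 200 bp (y axis, percent, a separate scale in each panel) for Elf1-alone, joint, Foxp3 and Treg-list sites, at 3 depths of the Cbfb list; error bars are exact 95% intervals. Elf1-alone sites stand at 1.08, 5.86 and 8.26%, below joint sites at 3.18, 12.3 and 15.2%.

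The 3 Elf1-alone sites with the highest Cbfb scores were unlike each other. On chromosome 19 at 9016399, 56.3-fold for Elf1 in Treg and 75.6-fold in CD4, Cbfb reached 23.5-fold at 48 bp and ranked 49 in its list. On chromosome 1 at 63223453 Elf1 was weaker, 9.44-fold in Treg and 23.5-fold in CD4, with Cbfb at 18.3-fold 163 bp away. The third, on chromosome 11 at 106650475, had Elf1 at 31.8-fold in Treg and 30.8-fold in CD4. Its Cbfb position was 3.54-fold at rank 135, and a Foxp3 midpoint lay 9489 bp away.

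Elf1 fold enrichment at Elf1-alone sites was slightly lower in the Treg than in the CD4 library, as it was at the other shared positions. On the log2 scale, the Treg minus CD4 difference had a median of -0.26 (SD 0.80 across the 1296 sites, 95% interval of the median -0.31 to -0.20), and 63.7% of the sites (61.0 to 66.4) were lower in Treg. At joint sites the median was -0.35, at Foxp3 sites -0.24 and over all shared positions -0.32. Sites more than 2-fold higher in Treg numbered 69 (5.32%, 4.17 to 6.69), against 4.49% of all shared positions. Those more than 2-fold lower in Treg numbered 192 (14.8%, 12.9 to 16.9), against 16.1%. Both shares were near the background, so neither count sets the Elf1-alone sites apart from shared Elf1 positions in general.

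The median was closer to 0, at -0.07, both with lists of 20000 Elf1 positions and with ranking by fold enrichment. Subtracting the median over all shared positions left 0.06. Because read numbers and control are unknown, the ratio is a property of this pair of libraries and not a measured difference between the cell types. Across the 1296 sites, the Treg and CD4 values had a Spearman correlation of 0.72 for fold enrichment and 0.51 for score. Joint sites had 0.79 and 0.71. These are correlations over positions of the same 2 libraries, both limited to high scores.

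**Figure D4:**
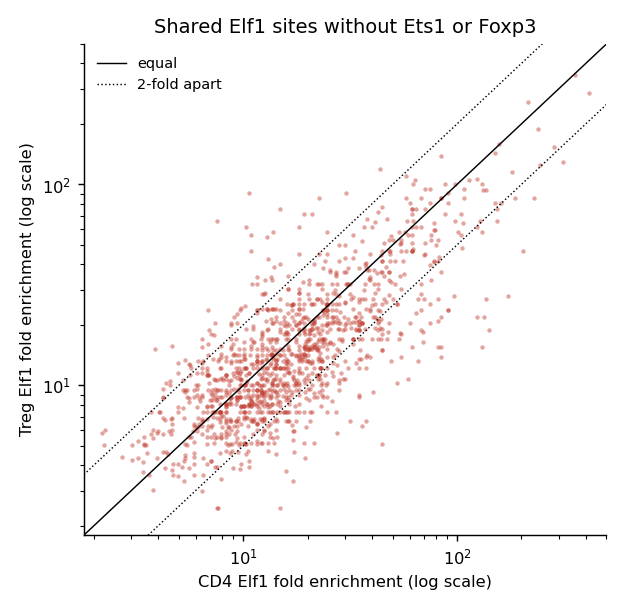
Elf1 fold enrichment at the 1296 Elf1-alone sites in the Treg library (y axis, log scale) against the CD4 library (x axis, log scale), 1 point per site. Most points lie between the dotted lines that mark 2-fold differences, with 69 sites above and 192 below them.

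Large differences between the libraries were few. Among the upper part of the sites by Treg score (ranks up to the median of 4542), the highest ratio was on chromosome 4 at 131399399, with 90.5-fold in Treg and 10.6-fold in CD4 (log2 ratio 3.09). Sites on chromosome 11 at 115023038 and chromosome 3 at 127255797 followed, with log2 ratios of 2.57 and 2.35. In these 3 the Treg and CD4 positions lay 36, 76 and 87 bp apart, farther than the median of 27.0 bp. At the first site the lower bounds of the fold enrichment were 16.0 in Treg and 4.04 in CD4.

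In the other direction, the lowest ratio was on chromosome 2 at 61431007, with 27.9-fold in Treg and 174-fold in CD4 (log2 ratio -2.64) and 125 bp between the positions. A joint site lay 211 bp from it. Chromosome 13 at 109106471 had 22.0-fold in Treg and 124-fold in CD4, and chromosome 8 at 109417522 had 10.8-fold in Treg and 59.1-fold in CD4. Both positions of these last sites lay within 21 bp of each other, and both sites also scored higher by rank in CD4. The chromosome 2 site went the other way by rank, at 1561 in Treg and 5589 in CD4.

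Elf1-alone sites had Foxp3 in their wider neighbourhood about as often as other Elf1 positions. A Foxp3 midpoint lay within 10 kb of 153 sites (11.8%, 10.1 to 13.7), against 11.7% of all Treg Elf1 positions outside 300 bp of Foxp3. The shares were 10.4% (9.45 to 11.4) at joint and 10.8% (9.58 to 12.1) at Treg-list sites. Within 1 kb they were 3.55% (2.61 to 4.71) at Elf1-alone, 2.61% (2.13 to 3.16) at joint and 2.26% (1.71 to 2.94) at Treg-list sites. At 100 kb Elf1-alone sites had 41.9% (39.2 to 44.6), joint sites 40.3% (38.8 to 41.9) and Treg-list sites 36.0% (34.1 to 37.9). The order of Elf1-alone and joint sites at 10 kb turned round with every 200 bp limit set to 500 bp, which changed both classes (9.63% of Elf1-alone, 11.5% of joint sites) and with ranking by fold enrichment (9.09% of Elf1-alone, 10.6% of joint sites).

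**Figure D5:**
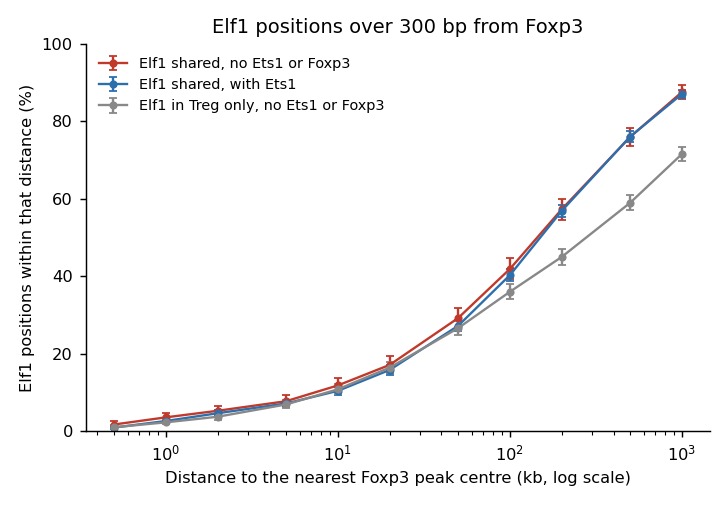
Share of Elf1 positions (y axis, percent) with a Foxp3 peak centre within a given distance (x axis, kb, log scale), for positions more than 300 bp from any Foxp3 centre; error bars are exact 95% intervals. Elf1-alone and joint sites follow each other closely, at 41.9 and 40.3% within 100 kb, and Treg-list sites reach 36.0%.

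Foxp3 within 10 kb was found almost entirely at Elf1-alone sites that also had strong Ets1 within 10 kb. Of the 445 Elf1-alone sites with a top 20000 Ets1 position at 201 to 1000 bp, 90 (20.2%, 16.6 to 24.3) had a Foxp3 midpoint within 10 kb. Of the 320 with the nearest such Ets1 position at 1001 to 10000 bp, 61 did (19.1%, 14.9 to 23.8), and of the 531 with none within 10 kb, 2 did (0.377%, 0.0456 to 1.35). Inside 10 kb the share thus did not vary with the distance to Ets1 beyond the intervals. The same split was not made for the other classes. Of the Foxp3 sites themselves, 91.7% had a top 20000 Treg Ets1 position within 10 kb and 97.4% a CD4 one. The split is therefore not read as a trait of Elf1-alone sites. Cbfb positions of any rank were most frequent in the nearest group but did not decline steadily with the distance. Their shares were 11.5% (8.65 to 14.8) in the nearest, 5.31% (3.12 to 8.37) in the middle and 7.34% (5.27 to 9.90) in the farthest group. The intervals of the nearest and middle groups do not overlap, and that of the farthest group overlaps both.

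Elf1-alone sites lay near each other less often than Foxp3 sites did. Another Elf1-alone site lay within 10 kb of 69 of them (5.32%, 4.17 to 6.69), against 286 of the 1259 Foxp3 sites (22.7%, 20.4 to 25.1), a class of nearly the same size. Within 1 kb the numbers were 22 Elf1-alone sites (1.70%) and 124 Foxp3 sites (9.85%). The 10 kb share was 17.7% among the 3836 joint sites and 16.9% among the 3609 positions without a CD4 counterpart. A larger class has closer neighbours by its size, so these 2 values do not show whether Elf1-alone sites are unusually far apart. The 69 sites formed 34 groups, of which the one with the most members held 3, on chromosome 7 between 20521016 and 20534629. A joint site lay within 10 kb of 200 Elf1-alone sites (15.4%, 13.5 to 17.5), against 217 Foxp3 sites (17.2%, 15.2 to 19.4) and 270 Treg-list sites (11.1%, 9.89 to 12.4). Within 50 kb the share was 42.9% (40.2 to 45.6) of Elf1-alone, 44.6% (41.8 to 47.4) of Foxp3 and 26.8% (25.0 to 28.6) of Treg-list sites. Elf1-alone and Foxp3 sites thus had overlapping intervals, with Treg-list sites lower.

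Every numbered chromosome and X carried Elf1-alone sites. Chromosome 11 had the most, 115, or 14.7% (12.3 to 17.3) of its top 10000 Treg Elf1 positions. By share, chromosome 8 was highest with 86 of 491 (17.5%, 14.3 to 21.2) and chromosome 12 lowest with 37 of 395 (9.37%, 6.68 to 12.7). On X, 24 of 218 positions (11.0%, 7.18 to 15.9) were Elf1-alone sites. Few Elf1 positions of X were shared with CD4 at all, 77 of 218, and of these 31.2% (21.1 to 42.7) were Elf1-alone sites, against 20.3% in the genome. These chromosomes were picked out after their values had been seen.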

How the data were processed

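The submitters' processing notes name Bowtie 0.12.7 and the mouse build mm9. The authors deposited 5 lists of single-base positions. Per the file headers each position has a score, an FDR (a q-value), an E-value and a fold enrichment as lower bound and maximum likelihood estimate. The peak caller, its thresholds, the control and the depth are not given in the sources used here. Foxp3 intervals, each 200 bp wide, came from combined replicates, per the labels, and have no score. The input libraries and the CD4 Cbfb library were not analysed here.

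Positions were ranked by score, with ties ordered by chromosome and position, and matched by distance between single bases. Each Treg Elf1 position was compared with its nearest top 10000 CD4 Elf1 position. Fold values in the text are the maximum likelihood estimates unless called a lower bound. An Ets1 or Cbfb position named at a site is the highest-ranking one within 200 bp. Shares have Clopper-Pearson intervals, densities exact Poisson intervals and medians order-statistic intervals. Positions near each other are not independent. The classification, the Cbfb shares and the log2 ratio were checked on simulated lists.

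The sites and the comparisons were chosen with earlier results of these data known. Named positions were the 6 with the highest Treg Elf1 score, the 3 others with the highest CD4 score, the 3 with the highest Cbfb score, the 3 highest and 3 lowest ratios in the upper part by Treg score, those at each limit, and the group with the most members. The split of Treg-list sites, the groups by Ets1 distance and the 1 kb and 100 kb limits were added after seeing the data. Start sites of genes, sequence motifs and gene lists were planned and not run, since no mm9 genome or annotation was used here. Tools were Python 3.11.15 with scipy 1.17.1, pandas 2.3.3, numpy 2.4.6 and, for plots, matplotlib 3.10.9.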

Additional observations from a re-analysis of the deposited data

How the results depend on the processing

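With 1 library per Elf1, Ets1 and Cbfb group, no difference has a replicate check. Unknown depth limits every absence: a missing position means only that none was listed. No paired analysis was possible because each group compared had 1 library. The number of Elf1-alone sites was 482 with the 5000 highest Elf1 positions and 2643 with 20000. It was 803 when no Ets1 position of FDR at most 0.01 was allowed within 200 bp. It was within 1.5 times of 1296 under the other 4 alternatives. The share with Cbfb was 2.20% with ranking by fold enrichment and 5.86% with Cbfb positions of FDR at most 0.01. It was below that of joint sites under all 9 alternatives, of which the FDR limit on Elf1 left both classes unchanged. With ranking by fold enrichment the interval of 1.40 to 3.28 included the 2.40% of joint sites. The median log2 ratio was -0.33 with 5000 Elf1 positions, -0.07 both with 20000 and with ranking by fold enrichment, -0.34 by the lower bound and -1.37 by score. Centring on all shared positions, which subtracts their negative median, made it 0.06; it was negative under the other 9. It was above that of joint sites under all 10 alternatives. Centring shifts both classes alike and the FDR limit on Elf1 left both unchanged, so neither of these alternatives could alter that order.

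The share with Ets1 of any rank was 49.2% with every 200 bp limit at 100 bp and 86.5% with these limits at 500 bp. It was 81.5% with 5000 and 70.2% with 20000 Elf1 positions, and 85.7% with ranking by fold enrichment. When no Ets1 position of FDR at most 0.01 was allowed within 200 bp, it was 61.5%. The share within 10 kb of Foxp3 was 9.63% with the limits at 500 bp and 9.09% with ranking by fold enrichment, and 29.2% lay within 50 kb. An FDR limit of 0.01 on Elf1 changed none of the 5 results, since all top 10000 positions pass it. The causes of the other changes were not tested.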
